A study of Homo sapiens with 6 samples.

Results

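Cystine uptake, transsulfuration and glutathione synthesis were followed through 10 genes, taken by name from the 32078 named genes of the count table: SLC7A11, SLC3A2, CTH, CBS, MPST, GCLC, GCLM, GSS, GSR and GPX4. All 10 were among the 14670 genes that passed the filter on low counts. They were chosen by pathway, and selected on the measured difference between EV and control counts in these libraries, so their changes are given as a description and carry no test of their own. The data were poly(A) RNA counts from 6 libraries labelled as PANC-1, an established human pancreatic carcinoma line. The 3 control libraries carry the treatment label none, and the 3 EV libraries are labelled as given extracellular vesicles derived from CAFs, cancer-associated fibroblasts. The labels' protocol text describes vesicle treatment for the controls as well, so the groups rest on titles and treatment labels. The sources used here give neither the vesicle dose nor its duration, and the labels do not tie the replicates to separate cultures.

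Cystine, the oxidised dimer of cysteine, enters cells through system xc-, an exchanger built from the light chain SLC7A11 and the heavy chain SLC3A2. Cells can also make cysteine from methionine by transsulfuration, in which CBS joins homocysteine and serine to cystathionine and CTH cleaves cystathionine to cysteine. Cysteine is then used by glutamate-cysteine ligase (catalytic subunit GCLC, modifier subunit GCLM) and by glutathione synthetase (GSS) to build glutathione. GSR returns oxidised glutathione to its reduced form, and GPX4 spends glutathione to reduce lipid peroxides, the step that restrains ferroptosis. Pancreatic carcinoma cells are known to depend on imported cystine.

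The genes of cysteine supply were lower in the EV libraries, and the genes that build glutathione were near their control levels. CTH stood at 24.0% of its control mean, SLC7A11 at 28.2%, CBS at 47.7% and SLC3A2 at 56.1%. GSS, GCLC, GCLM, GPX4 and MPST stood between 90.5% and 102.6% of control, with overlapping groups, and GSR stood at 126.1%. In the edgeR fit over all genes, 4 of the 10 were called lower (adjusted p under 0.05), where 20.7% of all tested genes were, and 1 was called higher, where 20.2% were (40.9% in either direction). For 5 of the 10 the libraries of the groups did not overlap, which held for 50.6% of all tested genes. At least 2-fold lower were 3 of the 10, CTH, SLC7A11 and CBS, against 2.95% of tested genes, and none was at least 2-fold higher, against 0.859%. CBS was less than 2-fold lower without control replicate 2 or EV replicate 2, at -0.93 on the log2 scale in each case, which leaves CTH and SLC7A11. The median log2 fold change of the 10 was -0.12, and that of all tested genes was -0.01.

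**Figure D1:**
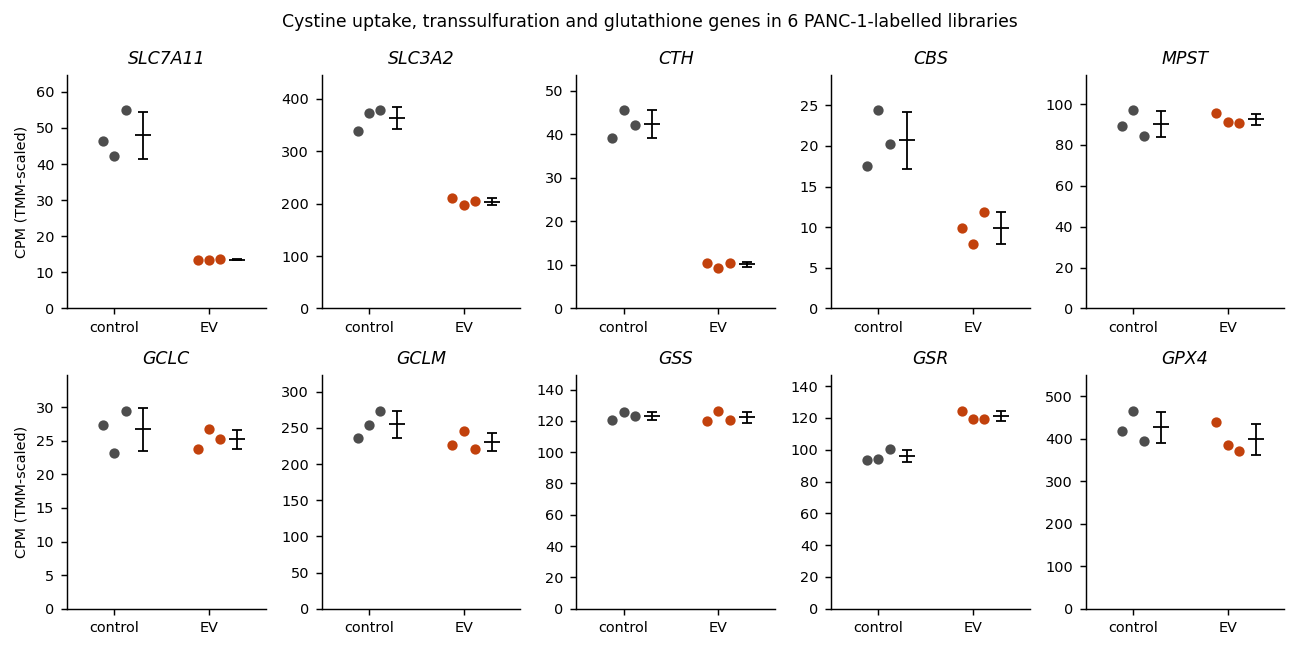
CPM (counts scaled to library size with TMM factors, linear axis from 0) of each gene in each library; points are libraries (grey control, orange EV) and bars the mean ± SD of 3. SLC7A11, SLC3A2, CTH and CBS are lower in every EV library than in any control library, GSR is higher, and the other 5 genes overlap.

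Libraries held 21669757 to 27535620 counts, of which loci without a gene name took 0.099% to 0.134%. A count of 0 allows up to 3 counts, or 0.109 to 0.139 CPM, for counting error only. The keratin genes KRT8 (3063 CPM in controls) and KRT18 (1271 CPM) were abundant, but KRT7 had only 1 to 10 counts per library. The epithelial genes EPCAM and CDH1 had 0 counts in all 6 libraries, and whether the cells are PANC-1 was not tested. Of 13 fibroblast markers in the table, DCN, LUM, THY1 and POSTN had 0 counts throughout. The summed level of the 13 was 947.6 to 1058 CPM in controls and 901.3 to 1001 CPM in EV libraries, with COL1A2 called higher and COL6A3 and ACTA2 called lower. COL5A2, which was not called, made up most of that level, at a mean of 603.7 CPM in controls and 553.9 CPM in EV libraries. Of 5 tested epithelial markers 3 were called lower, where 20.7% of all tested genes were. These were KRT19 (-0.48 ± 0.06 on the log2 scale), MUC1 (-1.35 ± 0.11) and CLDN4 (-0.73 ± 0.06). Summed immune markers stood at 4.33 to 5.3 CPM in controls and 3.39 to 3.92 CPM in EV libraries, with PTPRC at 0 counts. Most of these sums was CD8A, called lower, at a mean of 3.91 CPM in controls and 2.52 CPM in EV libraries. The part of these markers in the differences between the groups was not tested. In bulk RNA, fewer cells of a type and less RNA per cell cannot be told apart.

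Stretches around the transcription starts are shown for the member with the lowest fold change, CTH, and for SLC3A2 and GCLM, whose windows held a searched motif within 50 bases of the start, beside CHAC1, a glutathione-degrading enzyme gene that is no member. Sequences are from RefSeq on GRCh38.p14, written 5′ to 3′ on the strand of the gene, and capitals mark a motif match. Positions count from the start site, with -1 the base before it.
CTH, chr1:70411118-70411267, plus strand, positions -150 to -1: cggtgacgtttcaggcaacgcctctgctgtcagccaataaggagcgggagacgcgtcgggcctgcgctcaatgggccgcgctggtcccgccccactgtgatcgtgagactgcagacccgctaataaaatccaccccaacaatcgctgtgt
SLC3A2, chr11:62881619-62881698, plus strand, positions -80 to -1: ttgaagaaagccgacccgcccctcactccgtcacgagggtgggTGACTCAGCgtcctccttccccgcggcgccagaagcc
SLC3A2, chr11:62881729-62881748, plus strand, positions 31 to 50: ggactccTTACATCAgctcc
GCLM, chr1:93909431-93909510, minus strand, positions -80 to -1: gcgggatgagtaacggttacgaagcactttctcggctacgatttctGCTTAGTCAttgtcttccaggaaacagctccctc
CHAC1, chr15:40953241-40953320, plus strand, 80 bases around position -209: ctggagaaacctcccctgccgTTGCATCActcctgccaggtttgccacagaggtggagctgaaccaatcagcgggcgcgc

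Motifs were searched on both strands of windows from 250 bases before to 50 after each start. TGATGNAA, the composite element bound by ATF4 with C/EBP partners, was in 3.62% of the 35116 windows of all genes. TGACNNNGC, the core of the antioxidant response element bound by NRF2, was in 13.3%, and TGACTCA, the AP-1 element, in 4.95%. The table held 12 windows for 6 of the 10 genes, namely CTH, CBS, SLC3A2, GCLC, GCLM and GPX4, and it held none for SLC7A11, GSS, GSR and MPST. TGATGNAA was in 1 of the 12 windows, at position 38 of an SLC3A2 start, on the minus strand. TGACNNNGC was in 3 of the 12, 1 each for SLC3A2, GCLM and CBS, and the SLC3A2 match at -37, TGACTCAGC, also holds the AP-1 element. The GCLM match lay at -34 and read TGACTAAGC on the minus strand, and the CBS match lay at -83, also on the minus strand. The CTH window held none of the motifs, while CHAC1 held TGATGNAA at -209. A match is a run of letters, and binding was not measured.

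Of the transporter pair, SLC7A11, the chain that carries cystine and gives system xc- its specificity, was the more reduced. SLC7A11 stood at 46.4, 42.2 and 54.9 CPM in the control libraries and at 13.5, 13.4 and 13.6 CPM in the EV libraries. The groups did not overlap, and the SD (n = 3) was 0.118 CPM in EV libraries and 6.48 CPM in controls. The EV values rest on 365, 292 and 339 counts, so counting error alone is larger than that EV SD. Its log2 fold change was -1.83 ± 0.09 (SE), and only 0.361% of tested genes had a lower one. SLC3A2, a chaperone-like heavy chain that carries several amino acid transporters to the membrane, stood at 338.2, 372.5 and 377.9 CPM in controls and at 210.3, 196.5 and 204 CPM in EV libraries. Its groups did not overlap, and its log2 fold change was -0.83 ± 0.06 (SE).

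The chains did not change in proportion. For every 100 CPM of SLC3A2 there were 13.7, 11.3 and 14.5 CPM of SLC7A11 in the control libraries and 6.42, 6.81 and 6.68 CPM in the EV libraries. The groups did not overlap, and the log2 ratio was lower by 0.99 in EV libraries, with a spread within groups of 0.14 (SD). The size of such a ratio depends on the lengths of both transcripts, so only its difference between libraries is read. SLC7A5, the large neutral amino acid light chain that also pairs with SLC3A2, fell from 1401 ± 46.4 to 676.2 ± 41.4 CPM (SD, n = 3 each), with a log2 fold change of -1.05 ± 0.06 (edgeR adjusted p = 1.57e-10). SLC7A6, another partner, was at 0.27 ± 0.08 on the log2 scale and was called higher, a call lost without control replicate 2 (adjusted p = 0.0737) or EV replicate 3 (adjusted p = 0.0582). Of the 5 partners listed, 3 were tested, and SLC7A7 among them was not called.

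**Figure D2:**
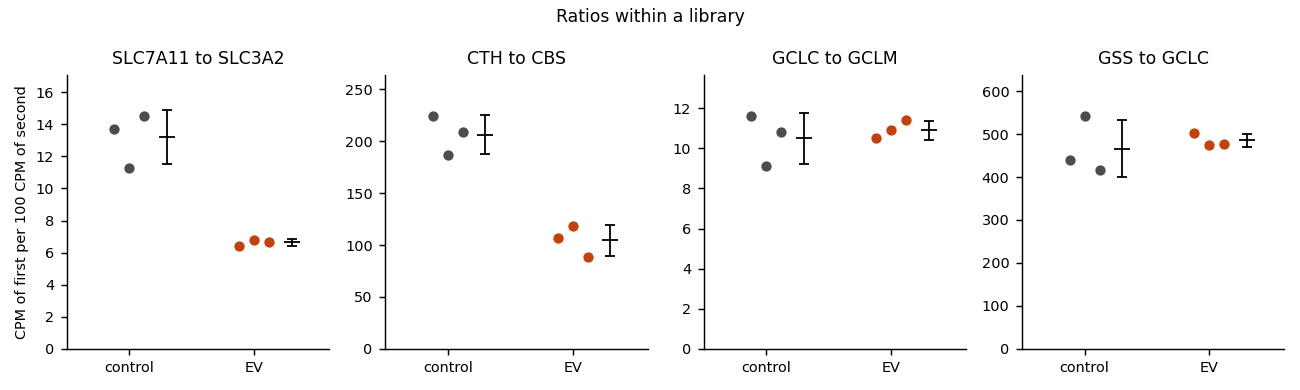
CPM of the first gene per 100 CPM of the second within each library (linear axes from 0; points are libraries, grey control and orange EV, bars the mean ± SD of 3). SLC7A11 to SLC3A2 and CTH to CBS (CBS row alone) separate the groups, and GCLC to GCLM and GSS to GCLC overlap. With CBSL added to CBS, the CTH ratio overlaps as well (not drawn).

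In transsulfuration, CTH, the last enzyme on the way to cysteine, had the lowest fold change of the 10 genes. It stood at 39.2, 45.5 and 42.2 CPM in controls and at 10.5, 9.4 and 10.5 CPM in EV libraries, with groups far apart relative to SDs of 3.14 and 0.645 CPM. Its log2 fold change was -2.06 ± 0.09 (SE), with a 95% interval from -2.24 to -1.88, and it ranked 31 from the lowest among the 14670 tested genes. CBS, which makes the cystathionine that CTH cleaves, stood at 17.5, 24.4 and 20.2 CPM in controls and at 9.87, 7.93 and 11.9 CPM in EV libraries. These groups did not overlap either, and the log2 fold change was -1.06 ± 0.13 (SE). CTH per 100 CPM of CBS was 186.4 to 224.0 CPM in controls and 88.5 to 118.5 CPM in EV libraries.

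The CBS value is uncertain, because the table also lists CBSL, a near-identical copy of CBS on the reference assembly GRCh38. In GENCODE v29, 4 of the 5 coding CBSL transcripts, of 2353 to 2563 bases, differed from a CBS transcript by 1 base over their whole length. CBSL stood at 18.9, 19.6 and 68.3 CPM in controls and at 9.69, 19.4 and 10.1 CPM in EV libraries, so control replicate 3 was far above the others and EV replicate 2 lay within the range of the controls. CBSL took 44.5% to 77.2% of the counts of both rows together, a share that moved from library to library. Summed, CBS and CBSL stood at 36.4, 44.0 and 88.5 CPM in controls and at 19.6, 27.3 and 22 CPM in EV libraries, with no overlap. The log2 fold change of the sum was -1.30 ± 0.21 (SE), and -0.82 ± 0.11 (SE) without control replicate 3. CTH per 100 CPM of this sum overlapped between the groups, at 47.7 to 107.9 CPM in controls and 34.4 to 53.9 CPM in EV libraries. The submitters' processing notes name hg19, whereas the counts list CBSL, a copy on GRCh38, so the build of the counts is not settled. Of the gene identifiers 97.0% are found in GENCODE v29, an annotation of GRCh38. That share cannot tell the builds apart, because it was not compared with an hg19 annotation.

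**Figure D3:**
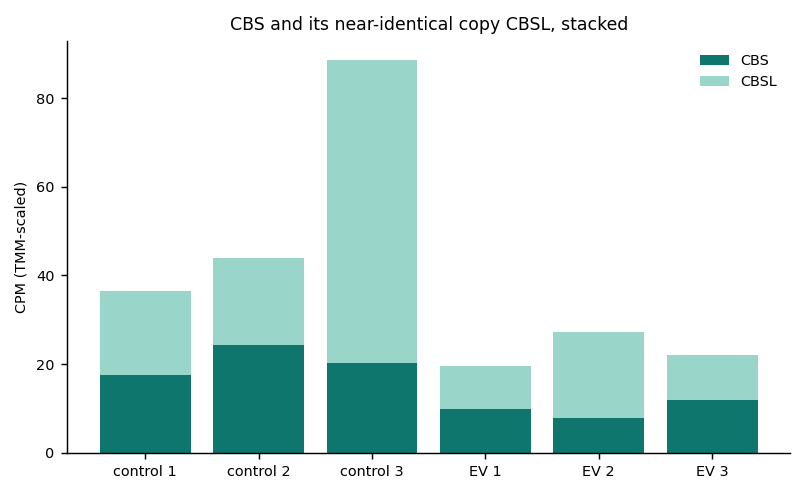
Stacked CPM of CBS (dark) and CBSL (light) in each of the 6 libraries, linear axis from 0. The CBSL part of control 3, at 68.3 CPM, exceeds the whole stack of every other library.

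MPST, a mercaptopyruvate sulfurtransferase that passes on sulfur from a product of cysteine, stood at 89.4, 97.0 and 84.4 CPM in controls and at 95.6, 91.4 and 90.8 CPM in EV libraries. The EV values lay inside the control range, and the fitted fold had a 95% interval from 0.936 to 1.12. Its exons share 6 bases with those of TST on the opposite strand, and the sources used here do not say whether strand entered the counting.

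The first step of glutathione synthesis showed small differences. GCLC, which holds the active site, stood at 27.4, 23.2 and 29.5 CPM in controls and at 23.8, 26.7 and 25.2 CPM in EV libraries. The ranges overlapped fully, and the 95% interval of the fold, 0.828 to 1.07, leaves room for a difference in either direction. GCLM, the subunit that lowers feedback inhibition of the enzyme, stood at 235.9, 254.1 and 273.9 CPM in controls and at 225.9, 245.0 and 220.4 CPM in EV libraries. One EV library lay above the lowest control, and the log2 fold change was -0.14 ± 0.06 (SE). The 95% interval of the fold, not adjusted over genes, ran from 0.824 to 0.993, with its upper end just below no change. GCLM was not called, but it was with upper-quartile scaling and without control replicate 1, where it reached its lowest value, -0.20. GCLC per 100 CPM of GCLM was 9.12 to 11.6 CPM in controls and 10.5 to 11.4 CPM in EV libraries, so the ratio between the subunits overlapped.

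GSS, which adds glycine to complete glutathione, was the steadiest of the 10 genes in controls. It stood at 120.8, 125.5 and 122.8 CPM in controls and at 119.8, 126.6 and 120.3 CPM in EV libraries. The coefficient of variation was 1.92% and 3.09%, and the 95% interval of the fold ran from 0.915 to 1.08. GSS per 100 CPM of GCLC, at 415.6 to 541.3 CPM in controls and 474.4 to 503.7 CPM in EV libraries, overlapped as well.

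GSR, the NADPH-dependent reductase of oxidised glutathione, was the member with higher levels. It stood at 93.8, 94.2 and 100.7 CPM in controls and at 124.7, 119.6 and 119.6 CPM in EV libraries. Every EV library lay above every control, and the log2 fold change was 0.33 ± 0.06 (SE), with a 95% interval of 1.16- to 1.37-fold. GPX4, the peroxidase of membrane lipids, stood at 419.6, 466.7 and 395.2 CPM in controls and at 440.5, 386.6 and 370.6 CPM in EV libraries. Its groups overlapped, and the 95% interval of the fold ran from 0.843 to 1.04, which does not reach the size of the SLC7A11 or CTH difference.

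**Figure D4:**
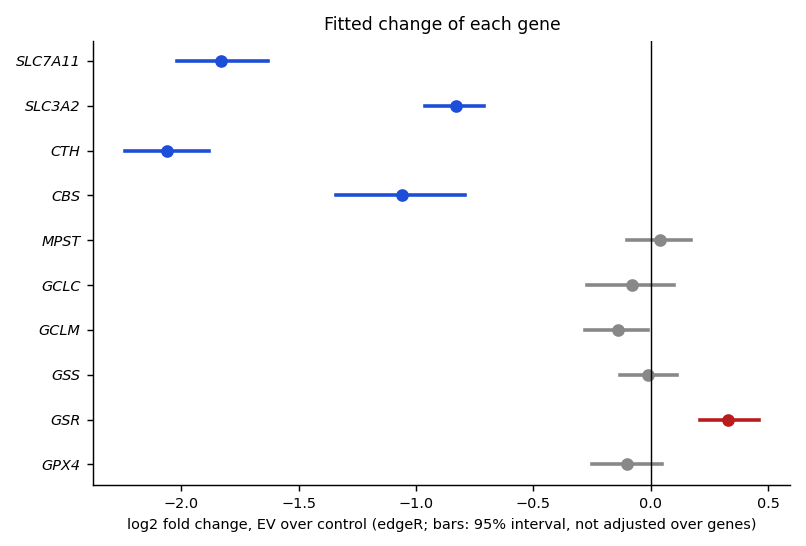
Fitted log2 fold change of each gene, EV over control, with its 95% interval, which is not adjusted over genes (blue called lower, red called higher, grey not called at adjusted p under 0.05 over all tested genes). The genes of cysteine supply, from -0.83 (SLC3A2) to -2.06 (CTH), lie apart from MPST and the glutathione genes, which lie between -0.14 and 0.33.

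Levels of different genes were compared per kilobase of the longest coding transcript in GENCODE v29. In controls GPX4 was the highest at 426.3 ± 36.2 CPM per kb (SD, n = 3), followed by SLC3A2 at 163.3 ± 9.68. GCLM (52.4 ± 3.91), GSS (45.5 ± 0.873) and MPST (42.7 ± 2.99) formed a middle group in which GSS and MPST did not differ beyond their spread. GSR followed at 30.1 ± 1.21 and CTH at 20.7 ± 1.54 CPM per kb. CBS (7.95 ± 1.34, CBS row alone) and GCLC (7 ± 0.85) were within their spread of each other. SLC7A11 was the lowest at 4.97 ± 0.672 CPM per kb. The place of CBS is uncertain at either length, because CBSL took 44.5% to 77.2% of the counts of both rows. Summed with CBSL, the control mean was 56.3 CPM, against 20.7 CPM for the CBS row. In EV libraries GPX4 (398.4 ± 36.5), SLC3A2 (91.6 ± 3.11) and SLC7A11 (1.40 ± 0.0122) kept the first, second and last places. The SLC7A11 SD is again smaller than counting error. CTH stood at 4.94 ± 0.316 CPM per kb, below GCLC at 6.61 ± 0.38. The order in the middle depends on the length used. With the median coding transcript length, 9 of the 10 control levels moved by more than their SD. GSS was then the third at 93.9 CPM per kb, ahead of MPST (67.1), GSR (66.5) and GCLM (64.8), which were close together. CBS, at 13 CPM per kb, then stood apart from GCLC at 9.46. GPX4, SLC3A2 and CTH kept their places in controls. SLC7A11 stayed last, but it has 1 coding transcript, of 9645 bases, so this check could not change its level.

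The likeness of profiles was measured as the root mean square distance between log2 CPM values over the 6 libraries, each centred on its own mean, over 12858 genes averaging 1 CPM or more. The genes closest to CTH were SESN2, a sestrin that restrains mTORC1 (0.094), ATF3 (0.106), PPP1R15A (0.11), DDIT3 (0.12) and CCN2 (0.129). SLC7A11 ranked 9, CBS 127 and SLC3A2 241 by closeness to CTH. Closest to SLC7A11 were CCN2 (0.155), ZNF528-AS1 (0.157), KDM6B (0.164), RPS6KA2 (0.181) and ROBO4 (0.186), and CTH ranked 7. All of these genes were lower in the EV libraries, and the distance uses the same 6 libraries as the fold change.

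Genes around these steps were taken as lists. Over all tested genes 20.7% were called lower and 20.2% higher, and no list count was tested against these shares. Among regulators, ATF4, the activator of the amino acid response, stood at 600.5, 658.4 and 629.9 CPM in controls and at 402.3, 325.4 and 316.1 CPM in EV libraries, a log2 fold change of -0.86 ± 0.08 (edgeR adjusted p = 6.08e-08). NFE2L2, which encodes NRF2, the activator of GCLC, GCLM and SLC7A11, stood at 90.8, 105.6 and 106.3 CPM against 81.1, 79.0 and 80.0 CPM, a log2 fold change of -0.33 ± 0.07 (edgeR adjusted p = 0.000489). Among 23 tested regulators, 11 fell and 3 rose, with a median of -0.16. The lowest were ATF3 (-2.17 ± 0.12), DDIT3 (-1.99 ± 0.11) and PPP1R15A (-1.87 ± 0.08). These are known targets of ATF4, and the part of ATF4 in their lower levels was not tested. BACH1, a repressor of NRF2 targets, was lower as well (-0.51 ± 0.06), while SP1 (-0.12 ± 0.07) and ATF5 (0.05 ± 0.06) were not called. The higher ones were the eIF2-alpha kinase genes EIF2AK2 (0.36 ± 0.07) and EIF2AK3 (0.32 ± 0.10) and the deubiquitinase gene OTUB1 (0.22 ± 0.06), and EIF2AK3 missed the threshold without control replicate 2, control replicate 3 or EV replicate 3 (adjusted p = 0.0516 to 0.0672).

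Of the genes that take glutathione apart, 2 of 8 tested fell and 2 rose. CHAC1, a stress-induced gamma-glutamyl cyclotransferase that cleaves glutathione, stood at 75.5, 75.0 and 77.8 CPM in controls and at 32.4, 22.4 and 23.3 CPM in EV libraries. It fell by 1.54 ± 0.10 on the log2 scale (edgeR adjusted p = 8.82e-10). Its paralogue CHAC2, which acts at a slow constant rate, rose from 11 ± 0.220 to 18.8 ± 0.750 CPM (log2 fold change 0.78 ± 0.09, edgeR adjusted p = 1.68e-06), so the paralogues moved in opposite directions. GGCT, which releases 5-oxoproline from gamma-glutamyl amino acids, rose by 0.55 ± 0.08, and OPLAH, which opens 5-oxoproline to glutamate, fell by 0.32 ± 0.08. Of the gamma-glutamyltransferase family, GGT7 stood at 3.62 ± 0.546 CPM in controls and 3.2 ± 1.08 CPM in EV libraries (SD, n = 3 each), GGT1 stood at 0.476 CPM in controls, and neither was called. GGT2, GGT5 and GGT6 were under the filter.

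Of 14 tested genes listed around glycine and glutamate, the other amino acids of glutathione, 7 fell and 1 rose. Their median was -0.47 on the log2 scale, and the shares over all tested genes were 20.7% lower and 20.2% higher. Not all of the 14 supply these amino acids, since PYCR1 and ALDH18A1 act in proline synthesis and GLUL uses glutamate up. The glycine transporter gene SLC6A9 (-1.10 ± 0.08), the transaminase gene GPT2 (-0.98 ± 0.06) and PHGDH, the first enzyme of serine synthesis (-0.84 ± 0.06), were the lowest. Among 18 tested carriers, 3 fell and 8 rose, with a median of 0.15. The neutral amino acid exchangers SLC1A4 (-1.30 ± 0.07) and SLC1A5 (-0.82 ± 0.06) and the efflux pump gene ABCC3 (-0.83 ± 0.16) fell, and ABCC4 (0.39 ± 0.07), SLC26A6 (0.39 ± 0.08) and SLC1A1, a glutamate and cysteine importer (0.57 ± 0.19), rose. The SLC1A1 call was lost by DESeq2 (adjusted p = 0.0519) and without any one of control replicates 1 and 2 and EV replicates 1 and 2 (adjusted p = 0.0617 to 0.1). SLC7A9, the light chain of the other cystine transporter, had 0 to 6 counts per library.

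The methionine cycle, which feeds homocysteine to CBS, had 3 lower and 5 higher genes of 19 tested, with a median of 0.14. Higher were AMD1, of polyamine synthesis (0.53 ± 0.06), and the methionine salvage genes MRI1 (0.47 ± 0.09) and ADI1 (0.25 ± 0.06). AHCYL1 (-0.23 ± 0.06) and AHCY, which releases homocysteine (-0.17 ± 0.06), were among the lower genes. AHCY missed the threshold without control replicate 2, EV replicate 2 or EV replicate 3 (adjusted p = 0.0584 to 0.125). Downstream of cysteine, 1 of 11 tested genes of breakdown and sulfide oxidation fell and 3 rose, with a median of 0.05. GOT1 was at -0.38 ± 0.06, and SUOX, the sulfite oxidase (0.51 ± 0.09), TST, a sulfurtransferase (0.39 ± 0.07), and GOT2 (0.23 ± 0.06) were higher. CDO1, which oxidises cysteine, had at most 1 count in a library.

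Among 20 tested genes of glutathione peroxidases, transferases and related proteins, 4 were lower and 7 higher, with a median of 0.07. The shares over all tested genes were 20.7% lower and 20.2% higher. GPX3 (-0.56 ± 0.14), GSTM1 (-0.50 ± 0.12) and GPX1 (-0.37 ± 0.09) were lower, and GSTCD (0.55 ± 0.10), PTGES (0.35 ± 0.09) and GSTT2B (0.31 ± 0.10) higher. GPX1 was not called by DESeq2 (adjusted p = 0.0583). GSTT2B has a near-identical copy and is uncertain, and it missed the threshold when EV replicate 1 was left out (adjusted p = 0.153). The list of thioredoxin, glutaredoxin and peroxiredoxin genes also held sestrins and genes that work with glutathione, such as GLRX and GLO1. Of its 25 tested genes 7 fell and 10 rose, with a median of 0.09. SESN2 (-2.03 ± 0.09), the thioredoxin inhibitor gene TXNIP (-1.57 ± 0.07) and the reductase gene TXNRD1 (-0.54 ± 0.07) had the lowest values. The methionine sulfoxide reductase gene MSRB1 (0.65 ± 0.09), GLRX (0.74 ± 0.23) and SESN1 (0.44 ± 0.13) had the highest. GLRX, at 1.45 CPM in controls, missed the threshold without control replicate 1, control replicate 2 or EV replicate 1 (adjusted p = 0.0518 to 0.119), and SESN1 without control replicate 3 (adjusted p = 0.0525).

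NADPH, the electron source of GSR, is supplied by enzymes of which 5 of 18 tested fell and 5 rose, with a median of 0.03. The mitochondrial folate genes ALDH1L2 (-1.46 ± 0.12) and MTHFD2 (-0.67 ± 0.06) and the malic enzyme gene ME3 (-0.65 ± 0.19) fell, and IDH1 (0.46 ± 0.06), MTHFD1 (0.40 ± 0.08) and the NAD kinase gene NADK2 (0.35 ± 0.08) rose. ME3 missed the threshold without EV replicate 3 (adjusted p = 0.0699).

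Around GPX4, a selenoprotein, 4 of 22 tested genes of selenoprotein synthesis and other selenoproteins fell and 4 rose, with a median of 0.02. SARS1, the seryl-tRNA synthetase (-0.90 ± 0.06), SEPSECS (-0.58 ± 0.11) and SELENOH (-0.32 ± 0.10) were lower, and the selenium uptake receptor gene LRP8 (0.55 ± 0.07), SELENOO (0.38 ± 0.07) and SEPHS1 (0.21 ± 0.06) were higher. SELENOH missed the threshold without control replicate 2, EV replicate 2 or EV replicate 3 (adjusted p = 0.0614 to 0.13). Among other ferroptosis genes, 3 of 31 tested fell and 13 rose, with a median of 0.15. MBOAT1, a phospholipid acyltransferase (1.20 ± 0.16), GCH1, of tetrahydrobiopterin synthesis (0.81 ± 0.15), and TFRC, the transferrin receptor (0.81 ± 0.10), had the highest values. The iron storage gene FTH1 (-0.42 ± 0.08), HMOX1 (-0.39 ± 0.10) and the polyamine acetyltransferase gene SAT1 (-0.43 ± 0.09) were lower. AIFM2, an alternative suppressor of ferroptosis, ranged from 49.2 to 51.3 CPM in controls and from 48.5 to 50.9 CPM in EV libraries and was not called.

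**Figure D5:**
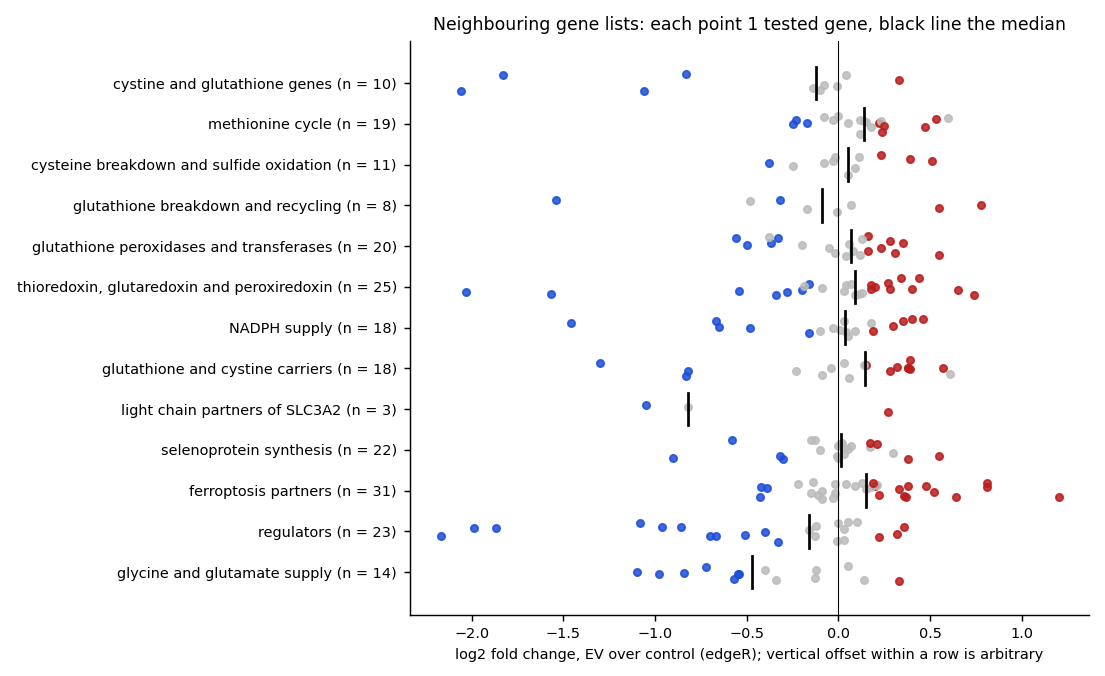
Fitted log2 fold change, EV over control, of each tested gene in the 10-gene pathway and the lists around it (1 point per gene; blue called lower, red called higher, grey not called; black line the median of the row). Values range from -2.17 (ATF3) to 1.20 (MBOAT1), and the medians of the rows with more than 3 genes lie between -0.47 (glycine and glutamate supply) and 0.15.

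In the authors' deposited table, which gives control over EV, the log2 fold changes were 2.04 for CTH, 1.81 for SLC7A11, 1.05 for CBS, 0.82 for SLC3A2 and -0.35 for GSR. CTH, SLC7A11, CBS and CBSL are marked Up in the authors' deposited table, meaning higher in the control libraries, while SLC3A2 and GSR carry no mark there although their q-values are 1.92e-31 and 7.51e-07. That table rests on the same libraries.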

How the data were processed

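The authors deposited whole-number counts per gene for 6 libraries and their own results table, whose columns include log2 fold changes, p-values and q-values. TopHat, RSEM and hg19 are named in the submitters' processing notes, without versions or roles. No source used here names the annotation release. Rows without a gene name (375 of 32453, assembled loci) were left out. Counts were tested in R 4.3.3 with edgeR 4.0.16 (glmQLFit and glmQLFTest, TMM factors, filterByExpr, Benjamini-Hochberg adjustment over 14670 genes), and genes were called at an adjusted p under 0.05. Fold changes are EV over control, and each SE was derived from the fold change and its F statistic. Because separate cultures are not stated, the p-values cover the spread among these libraries alone, possibly technical. CPM values use TMM factors, and errors are SD over 3 libraries. The script was tested on simulated counts. Members and gene lists were chosen with earlier results of these data known, and no list was tested. All 10 members are named, and from each list up to 3 called genes of at least 1 CPM in each direction with the most extreme fold change, beside ATF4, NFE2L2 and CHAC1. Other genes named, such as SLC7A7, BACH1 and AIFM2, were chosen after their values were seen. A few genes that the rule names are not reported here, though the counts include them. GENCODE v29 gave transcript lengths and exon overlaps, and RefSeq the windows at gene starts. The alternatives changed the scaling (library totals, upper quartile or median ratio), the filter (none, or 1 CPM in 3 libraries), the libraries (each left out), the tool (limma-voom from limma 3.58.1, or DESeq2 1.42.0) and the threshold, or added a replicate block. Summing CBS and CBSL was added after the data were seen. No pair of libraries agreed within sampling noise (chi-square per degree of freedom of at least 4.85).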

Additional observations from a re-analysis of the deposited data

How the results depend on the processing

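CTH, SLC7A11, CBS and SLC3A2 stayed called lower and GSR called higher in all 14 alternative fits. Over these fits the log2 fold change ran from -2.11 to -2.00 for CTH, from -1.91 to -1.71 for SLC7A11, from -1.21 to -0.93 for CBS, from -0.88 to -0.80 for SLC3A2 and from 0.31 to 0.37 for GSR. GCLC, GSS, GPX4 and MPST were called in none, and GCLM in 2. With the added condition of a 1.5-fold change, 1090 genes were lower and 538 higher, and 0 of the 10 genes were higher, since GSR is below that size. With library totals alone, 2 genes of the glycine and glutamate list were higher. Leaving out each library moved no ratio between members by more than the spread within groups. Of 64 genes that the naming rule takes from the lists, 52 were called in every fit that gave an adjusted p, and 12 missed the threshold in at least 1. Same-numbered libraries did not deviate together (r = -0.0402, -0.0202 and -0.034). With the replicate number as a block the log2 fold change was -2.06 for CTH, -1.82 for SLC7A11, -1.06 for CBS, -0.83 for SLC3A2 and 0.34 for GSR, and the same 5 members were called. Depth limits the genes under the filter, such as GGT5 and SLC7A9.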
